A study of Mus musculus with 12 samples.

Results

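In-frame T-cell receptor β (TCRβ) rearrangements whose CDR3 contains a stop codon were taken from CD8 T cells of MC38 tumor-bearing mice under immune checkpoint inhibitor therapy. Every row that the deposited files mark with the status Stop was used, which gave 3085 of 288925 rearrangements (1.07%) and 5614 of 693860 templates (0.809%) in 12 libraries. The other statuses were In (in-frame without a stop in the CDR3, 205925 rows, 71.3%) and Out (out-of-frame, 79915 rows, 27.7%). All mice were female C57BL/6 carrying MC38, a colon adenocarcinoma line, and all received anti-CTLA-4 Ab and anti-PD-L1 Ab, so that no untreated group was available here. There were 3 experiments (A, B and C here), and 4 groups with 1 library per experiment. The groups were the CD27loCX3CR1lo, CD27hiCX3CR1lo and CX3CR1hi subsets of CD8 T cells, sorted from spleen by flow cytometry, and CD8 TILs, isolated by CD8a positive selection. Cells were harvested 2 weeks after therapy began, each library was a pool of several mice, and the DNA libraries hold no expression values against which the sorted phenotypes could be checked. A template is 1 estimated genome carrying a rearrangement, and libraries held from 7804 templates in the TILs of experiment A to 172292 in the CX3CR1hi cells of experiment C.

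The TCRβ gene is assembled in the thymus by joining a V, a D and a J segment. Exonucleases trim the segment ends and terminal transferase adds untemplated N bases, so the product may be in or out of frame and stop codons can arise at the joints. A rearrangement with a stop codon encodes no receptor. Such a rearrangement persists in cells whose second allele carries a productive one, and its abundance follows the expansion of its cell and not the specificity of its own sequence.

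All 3085 Stop rows had a CDR3 length divisible by 3, and all held a stop codon within the CDR3 when their sequences were translated from the conserved cysteine. A single stop codon was present in 3016 rows, 67 rows held 2 and 2 rows held 3. The ends of 3 V segments are shown first because the largest difference in V use rests on them. The sequences are those of untrimmed rows in the files, 5′ to 3′ from the cysteine codon, with a complete in-frame stop codon in capitals.

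TCRBV04-01: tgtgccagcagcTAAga
TCRBV24-01: tgtgccagcagtctgta
TCRBV22-01: tgtgccagcagttgtc

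TCRBV04-01 (Trbv4 in RefSeq, chr6:41059443-41059886 in mm10) carries the codon TAA in frame as the fifth codon of the CDR3, so that the segment is read through only where trimming has removed part of it. TCRBV24-01 (Trbv24, chr6:41218091-41218557) ends in the bases ta, the first bases of TAA and TAG, and TCRBV22-01 (Trbv22, a pseudogene in RefSeq, chr6:41212075-41212534) leaves the bases tg of TGA once 2 bases are trimmed. In 94.8% of the untrimmed TCRBV04-01 rows and 99.6% of the untrimmed TCRBV24-01 rows the end was exactly as printed.

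TCRBV04-01 was the main source of Stop rearrangements, with 1484 of 3085 rows and 2437 of 5614 templates. It made up 47.8%, 48.3% and 48.2% of distinct Stop rows in experiments A, B and C, against 7.78% ± 0.23 (SD, n = 3 experiments) of Out rows and 4.41% ± 0.011 of In rows. The log2 difference in use was 2.63 (SE 0.0478) against Out rows, with an adjusted p of 2.45e-46 by edgeR's quasi-likelihood test, and 3.45 (SE 0.0324) against In rows, with an adjusted p of 1.10e-09 by the same test. Among all TCRBV04-01 rows that were non-productive (Stop or Out), the share with status Stop followed the trimming of the segment. It was 32.7% ± 1.06 where at most 2 bases were removed and the TAA was intact, 17.9% ± 2.25 where 3 were removed and the bases TA remained, and 2.32% ± 0.346 where 4 or more were gone. The 3 classes did not overlap in any experiment, but the place of the first class is set by definition, as described next.

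The TAA lay wholly within germline V bases in 1281 of the 1484 TCRBV04-01 Stop rows. Conversely, 91 TCRBV04-01 rows of 136 templates were marked In although at most 2 bases had been trimmed, and all 91 carried a substitution within the TAA. Of in-frame TCRBV04-01 rows (In plus Stop) with at most 2 bases trimmed, 93.4% ± 1.57 were Stop, compared with 0.888% ± 0.124 of those with 4 or more bases trimmed. An in-frame row with the TAA intact is Stop by definition. The 93.4% and the substitutions in the 91 rows therefore describe the labels and are no separate result.

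**Figure D1:**
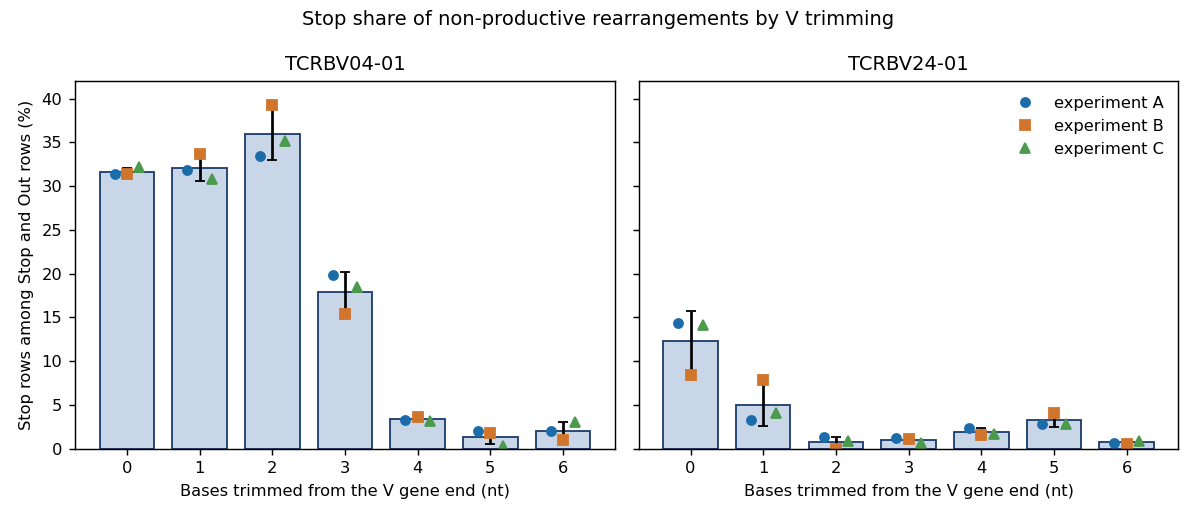
Percent of non-productive rows (Stop plus Out) that were Stop, by the number of bases trimmed from the V end, for TCRBV04-01 (left) and TCRBV24-01 (right). Bars are means of 3 experiments with SD and symbols are experiments. TCRBV04-01 fell from between 31.6% and 36.0% with at most 2 bases trimmed to 3.35% with 4, and TCRBV24-01 from 12.3% untrimmed to 0.730% with 2. With the TAA of TCRBV04-01 intact, every in-frame row is Stop by definition.

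TCRBV24-01 was the second most frequent V segment, with 225 Stop rows (7.2% ± 0.971 of Stop rows, 6.42% ± 0.113 of Out rows and 1.14% ± 0.068 of In rows). Of these, 138 had an untrimmed V end. The untrimmed end was Stop in 12.3% ± 3.39 of non-productive rows and the end trimmed by 1 base, which leaves a lone T, in 5.03% ± 2.44. In TCRBV22-01, 23 of the 34 Stop rows had exactly 2 bases trimmed, and rows untrimmed or trimmed by 1 base gave no Stop row among 72 and 73 Out rows. The same order held when all V segments were grouped by what the trimmed end left behind. Stop rows were 33.1% ± 1.15 of non-productive rows where the end held a whole stop codon, so that every in-frame row is Stop by definition. They were 19.2% ± 8.29 where the end left TG and 14.5% ± 3.04 where it left TA. They were 6.81% ± 0.531 where it left T and 1.57% ± 0.084 for every other end. Without TCRBV04-01 the values for TG, TA, T and other ends were 19.1%, 12.3%, 7.80% and 1.57%.

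V gene use was then compared across all segments, by the number of distinct rearrangements per gene. Of 26 V genes tested against Out rows, 17 differed (65.4%), 1 higher (3.85%) and 16 lower (61.5%) in Stop rows. Only TCRBV04-01 was higher. The segments with the largest falls were TCRBV05-01 (1.81% of Stop rows and 6.21% of Out rows, log2 -1.75), TCRBV17-01 (log2 -1.59), TCRBV13-01 (log2 -1.58), TCRBV01-01 (log2 -1.50), TCRBV13-02 (log2 -1.38) and TCRBV12-02 (log2 -1.35), with adjusted p between 4.73e-14 and 8.42e-06 in edgeR. Because shares sum to 100%, the 1 abundant segment lowers all others. With TCRBV04-01 left out of every status, 9 of 25 genes differed, 4 higher and 5 lower. TCRBV24-01 (log2 1.00), TCRBV22-01 (log2 1.60), TCRBV29-01 (log2 0.84) and TCRBV14-01 (log2 0.81) were then higher, and TCRBV05-01, TCRBV17-01, TCRBV13-01, TCRBV01-01 and TCRBV13-02 stayed lower by 0.93, 0.77, 0.75, 0.67 and 0.55 on the log2 scale. TMM normalization likewise gave 9 genes, 5 higher and 4 lower.

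**Figure D2:**
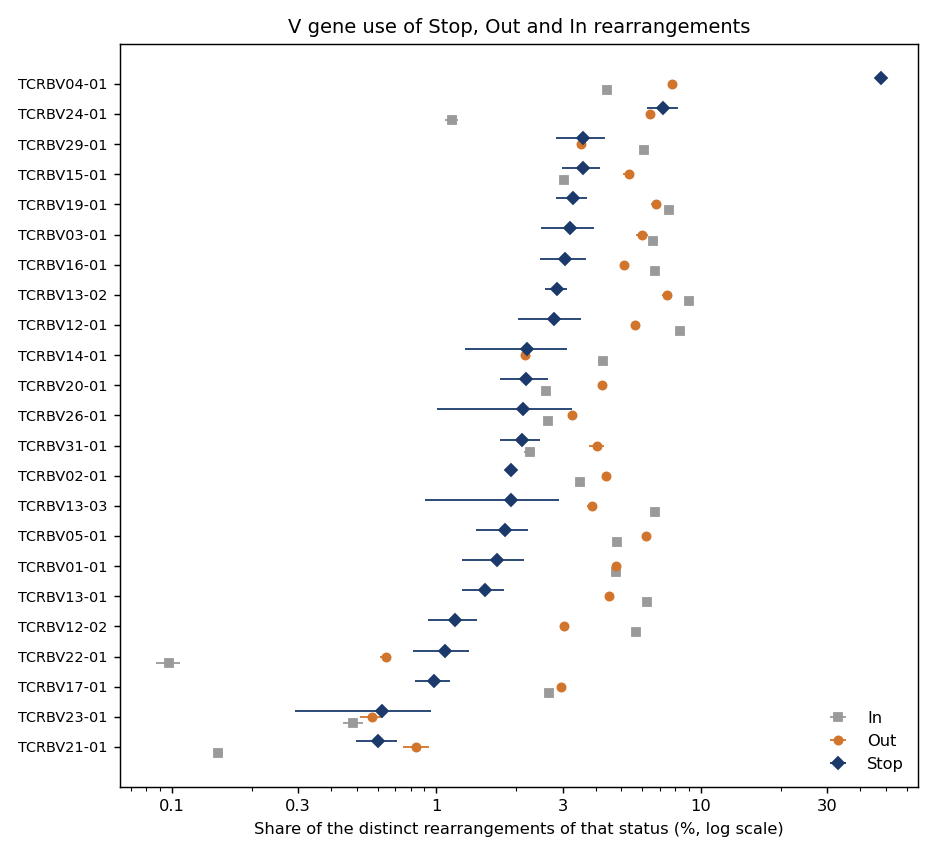
Share of distinct Stop, Out and In rearrangements that used each V gene (log axis, percent), for the 23 V genes with at least 15 Stop rows. Symbols are means and bars SD of 3 experiments. TCRBV04-01 stands at 48.1% of Stop rows, and TCRBV24-01, TCRBV22-01 and TCRBV21-01 are rarer among In rows than among Out or Stop rows.

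Against In rows, 19 of 26 V genes differed (73.1%), 5 higher (19.2%) and 14 lower (53.8%) in Stop rows. Besides TCRBV04-01, TCRBV22-01 (log2 3.50), TCRBV24-01 (log2 2.67) and TCRBV21-01 (log2 2.03) were higher. TCRBV27-01 (log2 3.27, a pseudogene in RefSeq) is also counted among the 5, with 3 Stop and 20 In rows. It passed the filter on low counts only through its Stop rows, so its rise is no result. TCRBV12-02 (log2 -2.25), TCRBV13-01 (log2 -2.06), TCRBV13-03 (log2 -1.85), TCRBV13-02 (log2 -1.66), TCRBV12-01 (log2 -1.59) and TCRBV01-01 (log2 -1.50) were the lowest. Without TCRBV04-01 the counts were 8 higher and 6 lower of 25. These segments also differed in how many rows were in-frame. For every out-of-frame row, TCRBV24-01, TCRBV21-01 and TCRBV22-01 had 0.498, 0.496 and 0.453 in-frame rows, while the median was 2.72 (range 0.498 to 5.06) over the 20 V genes with at least 1000 non-productive rows.

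The Stop status covers the CDR3 only. In TCRBV24-01 the sequenced window upstream of the CDR3 held the sequence TAGctctgt in 7644 of 7696 rows (99.3%), where the capitals are an in-frame stop codon and the last 3 bases are the cysteine codon. Counting variants of these bases, 2327 of the 2335 TCRBV24-01 rows marked In carried a stop codon upstream of the CDR3, as did all 225 Stop rows. They made up 5061 templates and between 0.883% and 1.43% of In rows per library. Over all V genes, 2386 In rows (1.16%) held such a codon.

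Among J segments, all 14 were seen in Stop rows, and their shares ran from 0.137% for TCRBJ02-06 to 17.4% ± 2.65 for TCRBJ02-07. Of 14 J genes tested, 5 differed from Out rows (35.7%), 3 higher (21.4%) and 2 lower (14.3%), and 7 differed from In rows (50%), 5 higher (35.7%) and 2 lower (14.3%). TCRBJ01-07 showed the largest rise in both comparisons, with 35 Stop, 83 Out and 2 In rows (edgeR adjusted p = 1.05e-07 against Out). Against In rows, TCRBJ01-07 and TCRBJ02-06 (4 Stop and 21 In rows) passed the filter on low counts only through their Stop rows. Both are among the 5 higher, and their rise against In rows is no result. TCRBJ02-01 showed the largest fall, at 8.17% ± 0.852 of Stop, 11.0% ± 0.195 of Out and 12.5% ± 0.099 of In rows (adjusted p = 0.00795 and 0.000175 by edgeR). TCRBJ02-05 was higher in Stop rows, at 14.2% ± 1.01 against 10.4% ± 0.20 of Out rows (adjusted p = 0.00164). With 1 experiment left out, between 0 and 3 J genes passed against Out rows and between 1 and 4 against In rows. TCRBJ01-07 passed against In rows each time, under the same limit of the filter. Against Out rows it was lost without experiment C (adjusted p = 0.12 by edgeR).

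The TCRBJ01-07 rows shared more than a segment name. Of 120 rows of any status, 112 ended in the same 35 bases, shown here with the stop codon that was the first one in 29 of the 35 Stop rows in capitals.

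TCRBJ01-07 rows, shared end: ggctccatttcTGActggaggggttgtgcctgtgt

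The files assign most of these shared bases to the D-J insertion (median 34 inserted bases there in the Stop rows) and not to the J segment, and the CDR3 of these rows was long, from 57 to 84 bases with a median of 69. They were 35 of the 61 Stop rows with 15 or more inserted bases, 79 of 417 such Out rows and 1 of 191 such In rows. Inserted bases and length are therefore given with and without TCRBJ01-07 below.

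The codon TAA was found first in 1730 Stop rows (56.1%), TGA in 708 (22.9%) and TAG in 647 (21.0%). Without TCRBV04-01, where TAA made up 87.3% of rows, TGA led with 41.0%, followed by TAG with 31.9% and TAA with 27.2% of 1601 rows. Most first stop codons stood at CDR3 codon 5 (1769 rows) or 6 (559 rows). Of all Stop rows, 41.9% had the first stop wholly in V bases, 19.4% across the V end, 14.1% within N bases, 17.2% across a D edge and 7.46% across the J start. No first stop codon lay wholly within D bases or within J bases as the files delimit them. Later stop codons of a row were not placed. These shares include the 35 TCRBJ01-07 Stop rows, of which 33 had TGA and 32 had the codon in bases counted as D-J insertion. Whether the bases of their shared end are untemplated was not tested. In V genes other than TCRBV04-01, only 0.687% were wholly in V bases, 27.7% crossed the V end, 26.7% lay in N bases, 31.5% crossed a D edge and 13.4% the J start.

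Stop rearrangements carried more inserted bases than both other statuses. The mean of library means was 4.79 ± 0.258 bases in Stop, 4.01 ± 0.0254 in Out and 3.47 ± 0.0261 in In rows (SD, n = 3 experiments), and Stop was above Out and above In in 12 of 12 libraries. Stop minus the mean of the other statuses was 1.05 bases, with p = 0.037 in a two-sided exact permutation test within experiments, the smallest p that 27 arrangements allow, and an adjusted p of 0.0556 over 6 measures. Without TCRBJ01-07 the means were 4.53, 3.98 and 3.47 bases, and without TCRBV04-01 as well they were 5.32, 4.0 and 3.46, with Stop still highest in 12 of 12 libraries. At the D-J joint Stop rows had 2.58 ± 0.102 inserted bases against 1.97 ± 0.0169 in Out rows, above Out in 12 of 12 libraries (exact permutation p = 0.037, adjusted p = 0.0556). Without TCRBJ01-07 the D-J values were 2.33 ± 0.146 and 1.95 ± 0.0133, again above Out in 12 of 12 libraries. At the V-D joint the values were 2.21 ± 0.237 and 2.04 ± 0.0329, above Out in 9 of 12 libraries, and the difference from the mean of Out and In did not pass (0.30 bases, exact permutation p = 0.111, adjusted p = 0.133). Without TCRBV04-01 and TCRBJ01-07, Stop minus Out was 0.741 ± 0.254 bases at the D-J joint (12 of 12 libraries). It was 0.584 ± 0.416 bases at the V-D joint (11 of 12 libraries).

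The share of non-productive rows that were Stop increased with the number of inserted bases. With TCRBV04-01 and TCRBJ01-07 left out, it was 0.882% ± 0.165 at 0 inserted bases, 1.88% ± 0.0354 at 3 to 4, 3.30% ± 0.734 at 7 to 9 and 7.65% ± 2.05 at 15 or more. The last class held 26 Stop rows, and its value was 13.1% ± 2.37 (60 rows) while TCRBJ01-07 was kept.

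**Figure D3:**
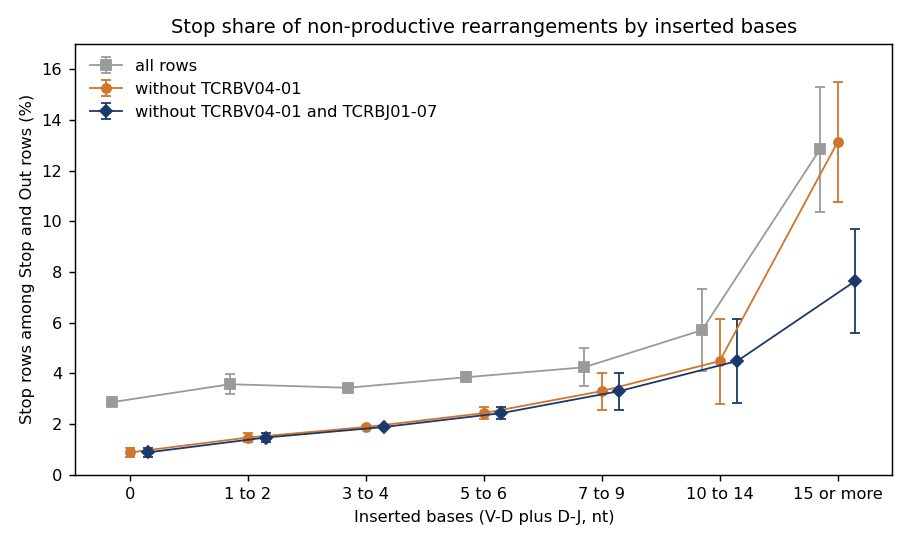
Percent of non-productive rows (Stop plus Out) that were Stop, by the sum of V-D and D-J inserted bases. Symbols are means of 3 experiments and bars SD, for all rows, for rows without TCRBV04-01, and for rows without TCRBV04-01 and TCRBJ01-07, for which the share was 0.882% at 0 and 7.65% at 15 or more inserted bases.

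CDR3 length of Stop rows depended on TCRBV04-01 and TCRBJ01-07, and V trimming on TCRBV04-01. Mean CDR3 length was 43.3 ± 0.412 bases in Stop, 42.5 ± 0.0881 in Out and 41.8 ± 0.0179 in In rows, and exceeded Out in 10 of 12 libraries. Without TCRBV04-01 and TCRBJ01-07 it was 42.4 ± 0.642 in Stop and 42.4 ± 0.0871 in Out rows, a difference smaller than the spread between experiments. Stop minus Out was 0.337 ± 0.360 bases without TCRBV04-01 alone and 0.660 ± 0.429 without TCRBJ01-07 alone. Stop rows had lost 2.30 ± 0.146 V bases against 2.89 ± 0.0658 in Out and 2.66 ± 0.00744 in In rows, below Out in 12 of 12 libraries. Without TCRBV04-01 the order turned, with 3.25 ± 0.309 bases in Stop, 2.86 ± 0.0624 in Out and 2.57 ± 0.00869 in In rows. J trimming was 2.89 ± 0.287, 2.78 ± 0.0066 and 2.84 ± 0.0221 bases (exact permutation p = 0.481).

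Between groups, the share of distinct rearrangements that were Stop was close to 1%. It was 1.01%, 1.09% and 0.976% in the CD27loCX3CR1lo libraries of experiments A, B and C, 1.08%, 1.10% and 1.08% in CD27hiCX3CR1lo, 1.12%, 0.931% and 1.08% in CX3CR1hi and 0.948%, 1.28% and 0.834% in TILs. The groups overlapped. The mean of CX3CR1hi and TILs minus the mean of the CX3CR1lo subsets was -0.0234 percentage points (SD 0.0412, n = 3 experiments), and an exact permutation test (two-sided) gave p = 0.741.

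By templates the groups separated in the spleen. Stop templates were 0.969%, 1.00% and 0.851% of all templates in CD27loCX3CR1lo cells, 1.04%, 1.05% and 1.03% in CD27hiCX3CR1lo cells and 0.691%, 0.632% and 0.519% in CX3CR1hi cells. In TILs they were 0.487% (Wilson 95% confidence interval 0.355 to 0.668), 0.401% (0.316 to 0.509) and 1.34% (1.22 to 1.48). The CX3CR1hi libraries were below all 6 CX3CR1lo libraries. The difference was -0.376 ± 0.0551 percentage points, with p = 0.037 by exact permutation within experiments, the smallest that this design allows. This contrast without TILs lay outside the 14 adjusted measures, so its p is unadjusted. With TILs included the difference was -0.311 (SD 0.268) and did not pass (exact permutation p = 0.0833, adjusted p = 0.167 over 14 measures). The TIL library of experiment C stood apart through 1 rearrangement with 283 of its 391 Stop templates. In percentage points, both contrasts were smaller without TCRBV04-01 rows of any status, a setting chosen after seeing the data. They were -0.218 for CX3CR1hi cells (exact permutation p = 0.037) and -0.0548 with TILs included (exact permutation p = 0.861). That setting also lowered the shares, to 0.480% to 0.586% in CX3CR1lo, 0.233% to 0.409% in CX3CR1hi and 0.313% to 1.33% in TIL libraries. Percentage points with and without this segment therefore have different baselines. With a minimum of 2 templates the contrasts were -0.249 for CX3CR1hi cells (exact permutation p = 0.037) and -0.187 with TILs included (exact permutation p = 0.343).

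**Figure D4:**
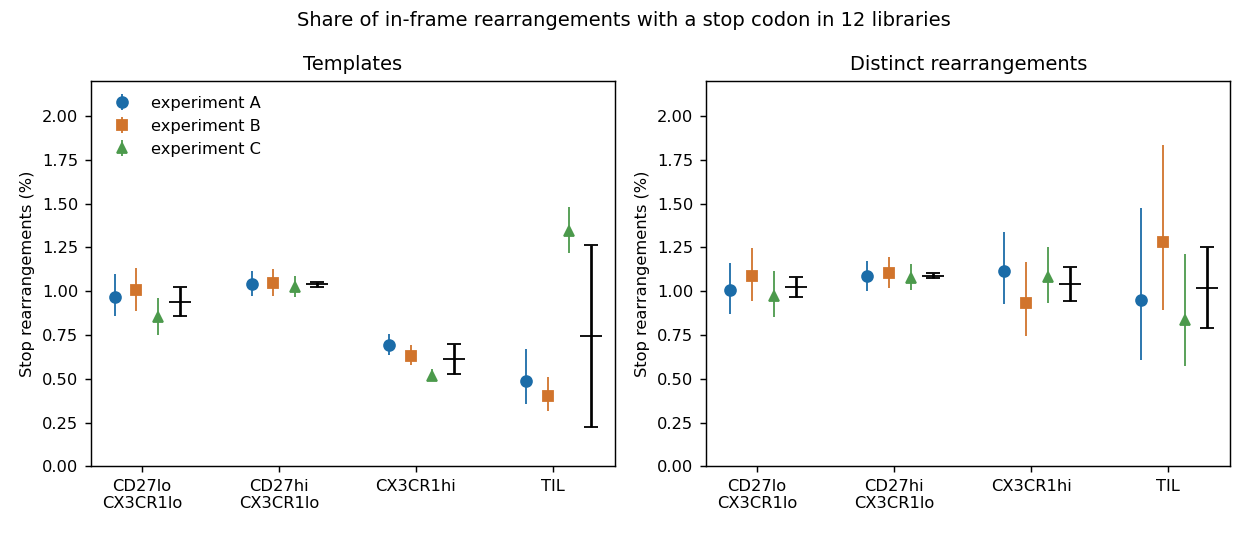
Stop rearrangements as a percent of templates (left) and of distinct rearrangements (right) in the 12 libraries. Symbols are libraries with Wilson 95% confidence intervals, which cover counting error only, and black bars are group mean and SD. By templates the CX3CR1hi libraries lie between 0.519% and 0.691%, below every CX3CR1lo library, and by distinct rearrangements the groups overlap.

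The Stop templates of CX3CR1hi cells and TILs were held by few rearrangements. A Stop rearrangement had on average 1.35, 1.29 and 1.20 templates in the CD27loCX3CR1lo libraries, 1.20, 1.21 and 1.23 in CD27hiCX3CR1lo, 4.52, 6.09 and 5.11 in CX3CR1hi and 2.00, 2.31 and 14.5 in TILs, so no CX3CR1hi or TIL library overlapped the CX3CR1lo ones. The 10 most abundant Stop rearrangements held from 61.5% to 94.6% of Stop templates in CX3CR1hi and TIL libraries and from 2.95% to 11.6% in the CX3CR1lo libraries, a description that depends on the number of rows, which was 19 to 29 in TILs, 74 to 175 in CX3CR1hi and 185 to 826 in CX3CR1lo libraries. Clonality, which runs from 0 for even to 1 for a single dominant rearrangement, was 0.266, 0.381 and 0.340 in CX3CR1hi, 0.124, 0.130 and 0.639 in TILs and between 0.008 and 0.0152 elsewhere. Templates per rearrangement and clonality were higher in CX3CR1hi cells and TILs in 3 of 3 experiments (exact permutation p = 0.00926, the smallest of 216 arrangements, adjusted p = 0.0324). At an equal depth of 38 Stop templates, the number in the TILs of experiment A, templates per rearrangement were 1.01 to 1.05 in CX3CR1lo libraries and 1.84 to 5.70 in the other libraries. Out rows of the same libraries had clonality between 0.257 and 0.423 in CX3CR1hi and between 0.164 and 0.316 in TILs. TILs and CX3CR1hi cells differed by -0.031 (SD 0.291) in Stop clonality, with an exact sign-flip p of 1, and 3 experiments cannot go below 0.25.

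TCRBV04-01 made up 42.1%, 40.5% and 41.1% of distinct Stop rows in CX3CR1hi libraries, between 44.9% and 50.0% in the CX3CR1lo libraries and 52.6%, 34.5% and 37.0% in TILs. Its use did not pass between the groups (log2 -0.26, edgeR adjusted p = 0.143). Of the 4 V genes with enough Stop rows to be tested, 1 differed (25%): TCRBV19-01 was higher in CX3CR1hi cells and TILs (log2 1.22, SE 0.39, adjusted p = 0.0193 in edgeR), a call that was lost when any experiment was left out. No J gene of 10 passed in edgeR (0%), with 1 at an unadjusted p under 0.05, and DESeq2 gave 0. V trimming of Stop rows was larger by 0.516 ± 0.157 bases in CX3CR1hi cells and TILs (exact permutation p = 0.00926, adjusted p = 0.0324), at 2.30 to 3.03 bases against 1.88 to 2.19, while weighting by templates gave -0.241 and a minimum of 2 templates 0.312 (exact permutation p = 0.12). Out and In rows of these libraries had the same direction, at 2.80 to 3.17 against 2.71 to 2.82 bases for Out and 2.66 to 2.72 against 2.60 to 2.66 for In. The group difference of Stop rows relative to In and to Out rows did not pass (0.454 and 0.266 bases, exact permutation adjusted p = 0.0741 and 0.185 over 8 tests). Inserted bases (0.358 ± 0.278, exact permutation p = 0.0648), CDR3 length (-0.491 ± 0.725, exact permutation p = 0.222) and the share of TGA codons (1.27 ± 3.30 percentage points, exact permutation p = 0.685) did not pass. Rows lying 1 substitution from a more abundant In row of the same library were 13 of 3085 Stop rows, at most 3 in a library, and each had 1 template. By library they were 0% to 1.35% of Stop rows, against 1.12% to 3.57% of In rows measured the same way.

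The most abundant Stop rearrangements of CX3CR1hi and TIL libraries are printed because they carry the concentration just described. Each is the 87-base read of the files, 5′ to 3′, with its first CDR3 stop codon in capitals.

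Experiment C, TCRBV16-01 and TCRBJ02-07: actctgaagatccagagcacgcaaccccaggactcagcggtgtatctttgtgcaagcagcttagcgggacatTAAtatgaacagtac
Experiment C, TCRBV31-01 and TCRBJ02-07: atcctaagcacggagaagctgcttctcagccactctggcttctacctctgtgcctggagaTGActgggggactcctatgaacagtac
Experiment B, TCRBV04-01 and TCRBJ01-05: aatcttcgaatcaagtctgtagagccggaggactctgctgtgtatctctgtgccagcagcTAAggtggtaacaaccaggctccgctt
Experiment B, TCRBV04-01 and TCRBJ02-05: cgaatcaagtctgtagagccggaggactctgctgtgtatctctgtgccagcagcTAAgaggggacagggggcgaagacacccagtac
Experiment B, TCRBV19-01 and TCRBJ02-05: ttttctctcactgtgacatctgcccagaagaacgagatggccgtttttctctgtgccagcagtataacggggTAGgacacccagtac
Experiment A, TCRBV04-01 and TCRBJ02-07: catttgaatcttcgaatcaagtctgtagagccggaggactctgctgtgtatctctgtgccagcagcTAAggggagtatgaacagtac
Experiment A, TCRBV14-01 and TCRBJ02-05: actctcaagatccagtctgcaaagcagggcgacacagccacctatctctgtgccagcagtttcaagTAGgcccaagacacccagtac
Experiment A, TCRBV23-01 and TCRBJ02-05: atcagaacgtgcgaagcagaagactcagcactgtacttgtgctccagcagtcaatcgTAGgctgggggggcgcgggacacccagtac

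In experiment C, the TCRBV16-01 rearrangement had 333 templates in CX3CR1hi cells, 283 in TILs and 1 each in CD27loCX3CR1lo and CD27hiCX3CR1lo cells. It was 0.972% of all TIL templates (Wilson 95% confidence interval 0.865 to 1.09) and ranked 21 among all TIL rearrangements of any status. Its TAA lay within the D-J insertion. The TCRBV31-01 rearrangement had 68 templates in CX3CR1hi cells, 54 in TILs, 3 in CD27loCX3CR1lo and 2 in CD27hiCX3CR1lo cells. Both were thus seen in every library of the experiment, and together they held 337 of the 391 TIL Stop templates.

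In experiment B, both leading CX3CR1hi rearrangements used TCRBV04-01 with its germline TAA. The one joined to TCRBJ01-05 had 121 templates in CX3CR1hi and 8 in CD27hiCX3CR1lo cells, the one joined to TCRBJ02-05 had 118 in CX3CR1hi cells and 1 in CD27loCX3CR1lo cells, and neither was seen in TILs. The TCRBV19-01 rearrangement had 60 templates in CX3CR1hi cells and 16 in TILs, where it was the most abundant Stop rearrangement. In experiment A, TCRBV04-01 with TCRBJ02-07 had 117 templates in CX3CR1hi cells and none elsewhere. TCRBV14-01 had 68 in CX3CR1hi, 3 in CD27loCX3CR1lo and 2 in CD27hiCX3CR1lo cells and none in TILs, and TCRBV23-01 had 11 in TILs, 6 in CX3CR1hi and 1 in CD27hiCX3CR1lo cells. A rearrangement with no template in the TILs of experiment A may still have made up 0.0384% of that library, the share of 3 templates.

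**Figure D5:**
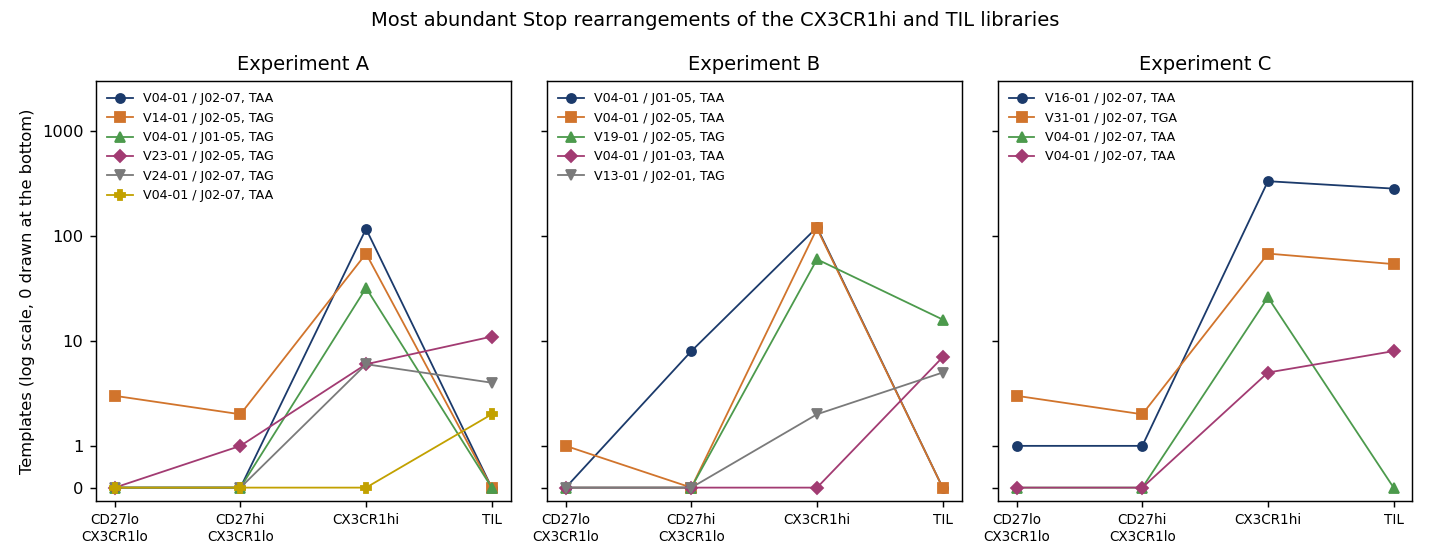
Templates (log axis, 0 drawn at the bottom) of the 3 most abundant Stop rearrangements of each CX3CR1hi and TIL library, followed across the 4 libraries of the same experiment (1 panel each). Lines are single rearrangements named by V gene, J gene and first stop codon. In experiment C the leading pair is high in both CX3CR1hi cells (333 and 68) and TILs (283 and 54), and in experiments A and B the leading CX3CR1hi rearrangements, with 117 and 121 templates, have none in TILs.

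Within an experiment, 1.81%, 2.32% and 1.82% of the 937, 863 and 1211 distinct Stop rearrangements were found in 2 or more libraries, and they held 12.3%, 27.4% and 36.0% of Stop templates. In 3 or more libraries there were 5, 2 and 5. The 5 with the most templates were, besides TCRBV16-01 and TCRBV31-01 of experiment C and TCRBV14-01 and TCRBV23-01 of experiment A, a TCRBV13-03 rearrangement of experiment B with 5 templates in CX3CR1hi cells, 2 in TILs and 1 in CD27loCX3CR1lo cells. On average, 19.6% of a library's Stop templates were also found in another group of the same experiment and 0.153% in another group of a different experiment. The average within experiments joins unlike groups. By pair of groups the means were 0.297% to 1.33% for CD27hiCX3CR1lo and 1.18% to 3.97% for CD27loCX3CR1lo templates. They were 24.6% to 33.0% for CX3CR1hi and 31.2% to 62.5% for TIL templates. The difference of 19.5 percentage points had p = 0.00463 when experiment codes were exchanged within groups, the smallest p of this exact permutation test. Out and In templates gave the same p. Libraries of 1 experiment share mice, so the direction was given by the design and the p is no result about Stop rows. Sharing was above 0 in 34 of 36 ordered pairs within and in 4 of 72 between experiments. Out and In templates measured the same way gave 28.5% and 29.8% within and 0.0975% and 3.03% between experiments.

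Of 3006 distinct Stop sequences, 4 (0.133%) occurred in more than 1 experiment, compared with 0.309% of Out and 2.53% of In sequences. All 4 used TCRBV04-01, had at most 1 inserted base and at most 8 templates in a library, and 1 of them was in all 3 experiments.

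TIL Stop templates were more often found in the CX3CR1hi cells of their experiment (42.1%, 49.3% and 96.2% in A, B and C) than in CD27loCX3CR1lo (0%, 7.46% and 86.2%) or CD27hiCX3CR1lo cells (34.2%, 2.99% and 87.0%). The difference between CX3CR1hi and the mean of the CX3CR1lo subsets was 26.2 ± 17.3 percentage points (exact permutation p = 0.037, the smallest of 27 arrangements). Without pairing by experiment it was lost, with an exact permutation p of 0.298. The 0% of experiment A rests on 38 TIL Stop templates, for which the interval reached 9.18%. There, 3 of 19 TIL Stop rows were found in CX3CR1hi and 2 in CD27hiCX3CR1lo cells. These shares were not brought to equal depth. Libraries held 25185 to 29977 templates in CD27loCX3CR1lo, 67850 to 99107 in CD27hiCX3CR1lo and 71386 to 172292 in CX3CR1hi cells. The part that depth plays in the sharing was not tested. In experiment C, all 337 TIL templates also found in CD27loCX3CR1lo cells belonged to the TCRBV16-01 and TCRBV31-01 rearrangements, with 1 and 3 templates there. Without the most abundant Stop rearrangement of each TIL library the values for CX3CR1hi were 18.5%, 33.3% and 86.1% and the difference 25.3. Sharing with CX3CR1hi cells was 62.5% ± 29.4 for Stop, 74.3% ± 19.5 for Out and 78.4% ± 12.6 for In templates of TILs.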

How the data were processed

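The authors sequenced TCRβ rearrangements of genomic DNA (ImmunoSEQ, survey depth, NextSeq500) and exported the annotated rearrangements. The deposited template counts are whole numbers without normalization, the deposited fraction of each rearrangement (count over all templates of the library) was not used, and lengths, trimming, insertions and indices, listed as other values, were used as deposited by the authors. The submitters' processing notes name mm10, and RefSeq positions are those of the same assembly. The insertion columns name the joints in the opposite order to the index columns, and V-D and D-J insertions follow the indices (100% of rows). Aligner and error correction are not given in the sources used here.

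The members and lists were chosen with earlier results of these data known. Experiments (n = 3 pools of mice) were the replicates, paired by the experiment code of the labels. Exact permutation p-values measure only the spread between these pools. The edgeR p-values also draw on counts of distinct rearrangements and on a dispersion estimated across genes. Very small edgeR values therefore do not come from 3 pools alone. Exact permutation tests were two-sided and within experiments, with 216 (group), 27 (status, TIL sharing) and 216 (sharing) arrangements and Benjamini-Hochberg adjustment within families. Gene use was tested on counts of distinct rearrangements with edgeR 4.0.16 in R 4.3.3, with DESeq2 1.42.0 as an alternative. The edgeR settings were quasi-likelihood, minimum count 10, totals as library sizes and threshold 0.05. The minimum count scales with the median total of a fit, so a gene with few Stop rows could pass. Python 3.11.15, numpy 2.4.6, pandas 2.3.3 and matplotlib 3.10.9 did the rest, and functions were tested on simulated data. Named V genes were up to 6 largest rises and 6 largest falls per comparison among those with adjusted p under 0.05, named J genes the largest rise and fall, and named rearrangements the 3 most abundant of each CX3CR1hi and TIL library and up to 5 shared by 3 or more libraries. Other genes were named after their values were seen. Intervals are Wilson 95% intervals and cover counting error only, since PCR reads carried no molecular identifiers.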

Additional observations from a re-analysis of the deposited data

Results flagged for a closer look

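Rows marked In that carry a stop codon upstream of the CDR3 lie outside the Stop status and were seen in all 12 libraries, above the limit of 3 templates. They numbered 2327 in TCRBV24-01, of which the most abundant had 456 templates in the CX3CR1hi cells of experiment C, more than any Stop rearrangement.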

How the results depend on the processing

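TIL libraries held as few as 38 Stop templates and 3 experiments set the smallest p, and with 2 experiments left no exact test reaches the threshold. Settings that left out TCRBV04-01, TCRBJ01-07 or both were chosen after seeing the data. Of 254 alternatives to the main results 166 kept direction and side of the threshold, as did 200 of 213 for single genes. The cause was not tested where values changed, except that leaving out a segment removes its rows.

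Between CX3CR1hi with TILs and the CX3CR1lo subsets, removing the most abundant Stop rearrangement gave -0.589 percentage points of templates and -0.0184 of in-frame rows, but it took 22.7% to 72.4% of Stop templates from CX3CR1hi and TIL libraries and at most 1.6% from the others, so these values are set by the removal and bear on no difference in share. The template share differed by -0.0548 without TCRBV04-01 and by -0.187 with a minimum of 2 templates. A minimum of 2 templates gave 0.222 (of distinct rows), 0.346 (of in-frame rows) and 0.457 (of non-productive rows) percentage points, -0.330 inserted bases, 0.312 V and 0.178 J bases trimmed and -2.47 percentage points of TGA. Without TCRBV04-01 the values were 0.0706 (distinct), 0.0922 (non-productive), 0.0295 J bases and -0.639 for TGA, and at equal depth the distinct share differed by 0.0073. Weighting by templates gave -0.0758 inserted bases, -0.241 V bases and 0.350 J bases. Inserted bases differed by 0.499 with a resolved D gene and by 0.545 without TCRBJ01-07.

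For Stop against the mean of In and Out, length differed by 0.638 bases without TCRBV04-01 and 0.267 without both segments, V trimming by 0.531 and 0.536, J trimming by 0.290 and 0.333 and V-D insertion by 0.749 and 0.721. The V-D difference of 0.30 had an exact permutation p of 0.111 over experiments. Taking 12 libraries as units gave p = 0.000977 (permutation), but libraries of 1 experiment are not independent.

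V genes differing from Out numbered 9 with TMM, 8 by templates and 9 without TCRBV04-01. Between groups they numbered 2 with TMM and 0 without a filter. J genes differing from Out numbered 2 with TMM, 3 with DESeq2 and 0 by templates, and from In 4 by templates.

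The replicate block pairs libraries by experiment. Without the block, 47 of 49 results kept their call. The TIL sharing difference of 26.2 lost it (exact permutation p = 0.298), and 1 J gene passed between groups. Deviations of libraries of 1 experiment correlated at -0.0423 (template share) to 0.491 (inserted bases) on average.

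With each experiment left out in turn, group differences ranged from -0.463 to -0.212 for the template share (CX3CR1hi alone -0.407 to -0.355), -0.0411 to -0.000759 for distinct, -0.0117 to 0.0469 for in-frame and -0.388 to -0.277 for non-productive rows. They were 2.47 to 5.76 for templates per rearrangement, 0.214 to 0.362 for clonality, 63.7 to 68.5 for the 10 most abundant, -0.907 to -0.238 for length, 0.223 to 0.501 for inserted bases, 0.458 to 0.605 for V and -0.241 to 0.184 for J trimming, -0.561 to 2.63 for TGA, and -0.579 to -0.0421 (rows) and -0.467 to -0.247 (templates) for rows near an In row. Stop against In and Out ranged from 0.95 to 1.31 for length, 0.934 to 1.20 for inserted bases, 0.173 to 0.403 for V-D, 0.693 to 0.794 for D-J, -0.537 to -0.424 for V and -0.0748 to 0.216 for J trimming. Sharing ranged from 11.2 to 23.9 and TIL sharing from 17.3 to 34.5. V genes numbered 14 to 17 against Out, 18 against In and 0 between groups, and J genes 0 to 3, 1 to 4 and 0.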
